A study of Mus musculus with 71 samples.

Results

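A set of 9 genes of the smooth muscle contractile apparatus were followed through a time course of rosiglitazone (RSG) in differentiated murine adipocytes. They were Acta2, Actg2, Tagln, Cnn1, Cnn2, Myl9, Tpm1, Tpm2 and Cald1, and they were measured by every probe set of the array annotated to exactly 1 gene that was among them. This gave 17 probe sets of the 22626 on the array after removal of controls, and 9 genes of the 12393 that had such a probe set. No further probe set named one of these genes together with another gene.

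The arrays measured RNA from 3T3-L1 adipocytes (35 arrays) and C3H/10T1/2 adipocytes (36 arrays), a pair of mouse fibroblast lines of embryonic origin that can be turned into fat cells. Each line was treated with RSG (1 µM), an agonist of the nuclear receptor PPARγ, or with its vehicle DMSO for 1, 2, 4, 7, 24 or 48 hrs. All 24 groups had 3 arrays from replicate cultures, except 3T3-L1 in DMSO at 2 hrs with 2. All cells, DMSO groups included, had already met RSG during differentiation, at 100 nM together with insulin, dexamethasone and 3-isobutyl-1-methylxanthine in 3T3-L1 and at 10 µM with insulin in C3H/10T1/2, and all were then kept for 24 hrs in a washout medium with albumin and no serum, in which the treatments followed. Cell type, differentiation protocol and culture cannot be told apart in any comparison of the lines. Signals were MAS5 values, and a signal of 19.9, the 95th percentile of the bacterial control probe sets, served as the presence limit.

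The contractile apparatus slides filaments of actin past filaments of myosin II. Acta2 and Actg2 are the vascular and enteric smooth muscle actins, Tagln, Cnn1 and Cnn2 encode the actin-binding proteins transgelin and calponin, Tpm1 and Tpm2 encode tropomyosins that lie along the filament, Cald1 encodes caldesmon, which holds back the myosin ATPase, and Myl9 encodes the regulatory light chain whose phosphorylation turns the motor on. Outside smooth muscle the same genes are used by stress fibers of fibroblasts, and preadipocytes take these fibers apart as they become round fat cells. Many genes of the group are classic targets of serum response factor (SRF), which binds the CArG box, and SRF is driven by myocardin in smooth muscle and by actin-sensing myocardin-related factors in other cells.

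Shown are the 250 bases before an annotated transcription start of the genes whose signals fell and rose again within a day in 3T3-L1 DMSO. This stretch was chosen because the CArG box lies in it in several contractile genes. The sequences are from RefSeq (GRCm38.p6), printed from the far end to the base before the start that the table gives, and capitals mark each CArG box with at most 1 G or C among its 6 middle bases. The stretches are chr19:34255374-34255623 on the minus strand for Acta2, chr10:79988350-79988599 on the plus strand for Cnn2, chr2:156775214-156775463 on the plus strand for Myl9 and chr9:67049214-67049463 on the minus strand for Tpm1. The start used is not always the outermost of the gene. The gene bounds reach to 67049672 for Tpm1, whose stretch lies wholly inside them. They reach to 34255585 for Acta2 and begin at 156775408 for Myl9, whose stretches lie partly inside.
Acta2: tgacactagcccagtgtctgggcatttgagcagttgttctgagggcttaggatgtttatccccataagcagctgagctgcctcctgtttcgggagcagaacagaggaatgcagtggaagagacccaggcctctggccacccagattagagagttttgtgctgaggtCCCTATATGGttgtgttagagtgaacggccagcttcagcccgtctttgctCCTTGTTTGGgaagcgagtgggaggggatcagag
Cnn2: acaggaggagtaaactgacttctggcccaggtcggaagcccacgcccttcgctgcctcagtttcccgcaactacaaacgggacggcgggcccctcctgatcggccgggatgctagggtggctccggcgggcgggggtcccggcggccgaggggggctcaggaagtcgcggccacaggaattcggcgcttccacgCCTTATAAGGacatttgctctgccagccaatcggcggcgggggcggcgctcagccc
Myl9: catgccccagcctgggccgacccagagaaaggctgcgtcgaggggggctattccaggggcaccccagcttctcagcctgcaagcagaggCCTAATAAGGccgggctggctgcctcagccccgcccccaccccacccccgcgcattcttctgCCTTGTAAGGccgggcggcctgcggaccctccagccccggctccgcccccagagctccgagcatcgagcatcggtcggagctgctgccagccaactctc
Tpm1: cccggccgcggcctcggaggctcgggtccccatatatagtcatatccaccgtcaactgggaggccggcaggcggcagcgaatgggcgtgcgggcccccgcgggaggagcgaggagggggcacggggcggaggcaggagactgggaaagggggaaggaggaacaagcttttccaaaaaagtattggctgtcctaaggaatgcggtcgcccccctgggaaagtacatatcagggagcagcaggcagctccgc
An exact CArG box, with CC and GG around 6 bases of A or T, stood 56 bases before the start of Cnn2 and 161 bases before that of Myl9. Boxes with 1 G or C in the middle began 84 and 34 bases before the start of Acta2 and 99 bases before that of Myl9. Of 32851 mouse promoter stretches of this length, 1.47% held an exact box and 8.59% a box with at most 1 G or C, against 2 and 3 of the 8 stretches of the 7 genes with an entry. The box reads the same way on both strands. The motif CATTCC, bound by TEAD factors, was found on either strand in 12.6% of all stretches and in those of Acta2, Tpm1 and 1 of the 2 of Cald1. Actg2 and Tagln had no entry. A match of letters is a description of the sequence and was not tested for binding.

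By their brightest probe sets, Acta2, Cnn2, Cald1, Tpm1 and Myl9 had higher signals in 3T3-L1 than in C3H/10T1/2 adipocytes, and Tpm2 had lower ones. In DMSO, Acta2 (1416454_s_at) ranged from 341 to 1695 with a median of 947 on 17 arrays of 3T3-L1, and from 92.2 to 367 with a median of 157 on 18 arrays of C3H/10T1/2. Cnn2 (1450981_at) had medians of 517 and 172, and Myl9 (1452670_at) of 66.2 and 19.6. Only a part of the smooth muscle set was present at all. Cnn1, the calponin of differentiated smooth muscle, was under the limit on all 35 and all 36 arrays, with a highest signal of 19.3. Tagln (1423505_at) reached the limit on 14 of 17 DMSO arrays of 3T3-L1, with a median of 41.6, and on none of the 36 of C3H/10T1/2. Actg2 (1422340_a_at) lay close to the limit, which it reached on 14 of 17 DMSO arrays of 3T3-L1 and on 5 of 18 of C3H/10T1/2. The second Acta2 probe set (1456658_at) never exceeded 27.3, and the third Tpm1 probe set (1456623_at) never exceeded 38.1 and had no group mean at the limit.

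**Figure D1:**
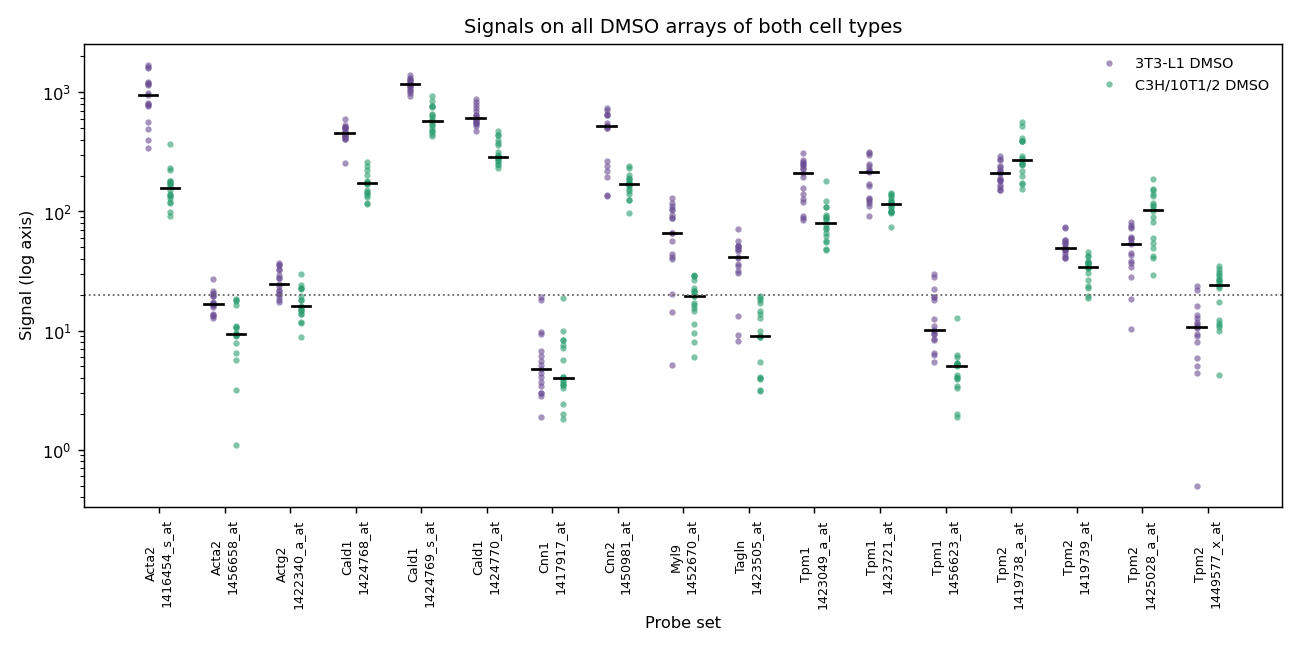
Signals of the 17 probe sets on all DMSO arrays, 17 of 3T3-L1 and 18 of C3H/10T1/2 adipocytes, on a log axis. Each point is an array, black bars are medians, and the dotted line is the presence limit of 19.9. Acta2 (1416454_s_at), Cald1, Cnn2 and Myl9 sit higher in 3T3-L1, and Cnn1 sits under the limit in both.

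Markers of other cell types set these levels in context. All 10 adipocyte markers had a mean above the limit in both lines, with Adipoq, the adiponectin gene, at a median of 7832 in 3T3-L1, against 6030 in the other line. Of 12 further smooth muscle markers, 9 had a mean above the limit in 3T3-L1 and 8 in C3H/10T1/2, but the smooth muscle myosin heavy chain Myh11 had medians of 28.4 and 10.7, leiomodin (Lmod1) was under the limit on every array, and myocardin (Myocd), the smooth muscle coactivator, reached it on 9 of 35 arrays of 3T3-L1 and on none of C3H/10T1/2. The SRF gene itself was above the limit on every array by its brightest probe set in each line. Skeletal and cardiac muscle markers had means above the limit for 7 and 5 of 23 genes. The 13 fibroblast and preadipocyte markers were above it for 12 genes in each line, and their summed signal in DMSO ranged from 25517 to 36115 in 3T3-L1 and from 17334 to 27069 in C3H/10T1/2. In bulk RNA a larger share of cells of one kind and more RNA per cell cannot be told apart.

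Averaged over the 6 times in DMSO, 12 of the 15 probe sets tested across both lines were higher in 3T3-L1 and 3 were lower by limma. The lines differed nearly everywhere, with 55.1% of the 18274 probe sets tested higher in 3T3-L1 and 22.4% lower, and the median of all probe sets was shifted by 0.32 on the log2 scale. Acta2 stood far beyond that shift, at a log2 difference of 2.51 ± 0.11 (SE; adjusted p = 1.87e-27). Cnn2 differed by 1.28 ± 0.09 (adjusted p = 4.01e-18) and the 3 Cald1 probe sets by 0.95 to 1.44. Tpm1 was 1.17 ± 0.12 and 0.71 ± 0.07 higher by its 2 present probe sets. For Myl9 (1.72 ± 0.23) and Tagln (2.02 ± 0.24), C3H/10T1/2 signals were largely under the limit, and with low signals raised to it the differences were 1.51 and 0.98. Actg2, 0.60 higher, was no longer called after quantile normalization (adjusted p = 0.731) or with the replicate block (adjusted p = 0.211), and the weak Acta2 probe set (0.98) not after quantile normalization (adjusted p = 0.0755) or with low signals raised to the limit (adjusted p = 0.38).

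Tpm2 did not follow the group, and its probe sets disagreed. The probe set 1419739_at was higher in 3T3-L1 by 0.67 ± 0.10 on the log2 scale, whereas 1419738_a_at, 1425028_a_at and 1449577_x_at differed by -0.44, -0.92 and -1.10. The last of these reached the limit on only 3 of 35 arrays of 3T3-L1, and with low signals raised to the limit its difference was -0.28. After quantile normalization, which left a shift of 0.08 and 35.9% of probe sets higher against 30.1% lower, the differences were 0.21, -0.50, -1.28 and -1.65 in the same order. The 3 probe sets lower in 3T3-L1 carry the suffixes _a_at and _x_at, which the array maker gives to sets shared by transcripts of a gene or by similar sequences of other genes. Among the higher ones, Tpm1 (1423049_a_at) and Actg2 (1422340_a_at) also carry _a_at, and Acta2 (1416454_s_at) and Cald1 (1424769_s_at) carry _s_at. Whether any of these probe sets, that of Acta2 included, also measures other transcripts was not tested. The Tpm2 differences are averages over a changing course. In DMSO the mean of 1425028_a_at went from 112 at 1 hr to 37.2 at 48 hrs in C3H/10T1/2, and from 69.8 to 42.0 in 3T3-L1. At 1 hr alone or 48 hrs alone no probe set of the group was called lower in 3T3-L1.

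The vehicle arms showed the main event of the group in 3T3-L1 adipocytes, a fall from 1 to 7 hrs that was no longer called at 24 hrs. Acta2 (1416454_s_at) had signals of 1177, 1695 and 1590 at 1 hr, which became 771, 791 and 788 by 4 hrs, reached 398, 341 and 491 by 7 hrs, and were back to 1160, 996 and 1620 by 24 hrs. All arrays at 7 hrs lay below all arrays of every other time in DMSO. The second Acta2 probe set (1456658_at) did not show the fall, with means of 15.1 at 1 hr and 19.1 at 7 hrs, both under the limit. By limma it was called in no comparison of times or of RSG in 3T3-L1, so the Acta2 results rest on 1416454_s_at. Cnn2 had signals of 517, 644 and 710 at 1 hr, then 241, 264 and 220 by 4 hrs, then 138, 136 and 194 by 7 hrs, then 518, 523 and 738 by 24 hrs. Myl9 had signals of 106, 118 and 128 at 1 hr, then 56.4, 44.2 and 41.5 by 4 hrs, then 5.1, 14.2 and 20.4 by 7 hrs, then 93, 88.1 and 88 by 24 hrs. For Acta2 (1416454_s_at), Cnn2 and Myl9 the arrays at 1 and 7 hrs did not overlap, and the levels at 4 hrs lay between them. For Myl9 all arrays at 24 hrs were still below all arrays at 1 hr.

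Against 1 hr, 4 of the 14 probe sets tested in 3T3-L1 were lower at 7 hrs by limma, where 0.0666% of all 18028 probe sets tested, 12 in number, were lower. The log2 change was -1.86 for Acta2 (SE 0.20, adjusted p = 2.23e-06), -2.01 for Cnn2 (SE 0.20, adjusted p = 6.86e-07) and -1.06 for Tpm1 (1423721_at, SE 0.21, adjusted p = 0.0323). Myl9 changed by -3.36 (SE 0.49, adjusted p = 0.000484), a value that rests on signals under the limit on 2 of the 3 arrays at 7 hrs. The Tpm1 call was lost in 5 of the 6 fits that left out 1 array, with adjusted p up to 0.237. Beside these 4, the probe sets lower at 7 hrs were those of the matrix protein gene Thbs1, the pseudokinase gene Trib3, the cyclin gene Ccnd1, the adaptor gene Grb14, the actin-associated LIM gene Pdlim2 and a further tropomyosin gene, Tpm4, and 2 probe sets with no single gene in the annotation. These 8 were named after their values were seen. The median over the 14 probe sets was -0.85, against 0.02 over all tested.

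At 2 hrs no probe set of the group was called by limma (0.0166% of all, and 0 at an unadjusted p under 0.05). At 4 hrs only Cnn2 was lower, at -1.36 (SE 0.20, adjusted p = 0.000672), again among 0.0666% of all, with 5 at an unadjusted p under 0.05. At 24 hrs none was called (0.949% of all in either direction, 1 at an unadjusted p under 0.05), and at 48 hrs only Acta2 was lower than at 1 hr, at -0.96 (SE 0.20, adjusted p = 0.00528), where 1.39% of all probe sets were lower. That last call was lost without the 1 hr replicate 2 or without the 48 hrs replicate 2 (adjusted p up to 0.0574).

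In the RSG arm, made of other arrays, Acta2, Cnn2 and Myl9 also fell from 1 to 7 hrs and then rose. For Acta2 and Myl9 all RSG arrays at 24 hrs stayed below all at 1 hr. In DMSO the same held for Myl9, whereas the Acta2 arrays at 1 and 24 hrs overlapped. The comparison within RSG was added after the DMSO values were seen. Acta2 had signals of 1011, 1384 and 1505 at 1 hr with RSG, 326, 302 and 345 at 7 hrs and 637, 746 and 874 at 24 hrs. Cnn2 had 617, 453 and 526, then 130, 119 and 197, then 269, 410 and 526. Myl9 had 94.7, 124 and 95, then 9.4, 18.5 and 5.7, then 37.5, 51.3 and 57. Here too the arrays at 7 hrs lay below all arrays at 1 and 24 hrs for each of the 3 genes.

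From 1 to 7 hrs in RSG, 6 of the 14 probe sets were lower, where 1.77% of all probe sets were, and the 4 called in DMSO were all among them. The log2 change was -1.98 for Acta2, -1.86 for Cnn2 and -1.52 and -1.13 for the 2 present Tpm1 probe sets. Myl9, under the limit on all 3 arrays at 7 hrs, was at least 5.22-fold lower there than at 1 hr. Tpm2 (1419738_a_at) fell by 0.78 (adjusted p = 0.0361), a call lost in 4 of the 6 fits without 1 array.

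**Figure D2:**
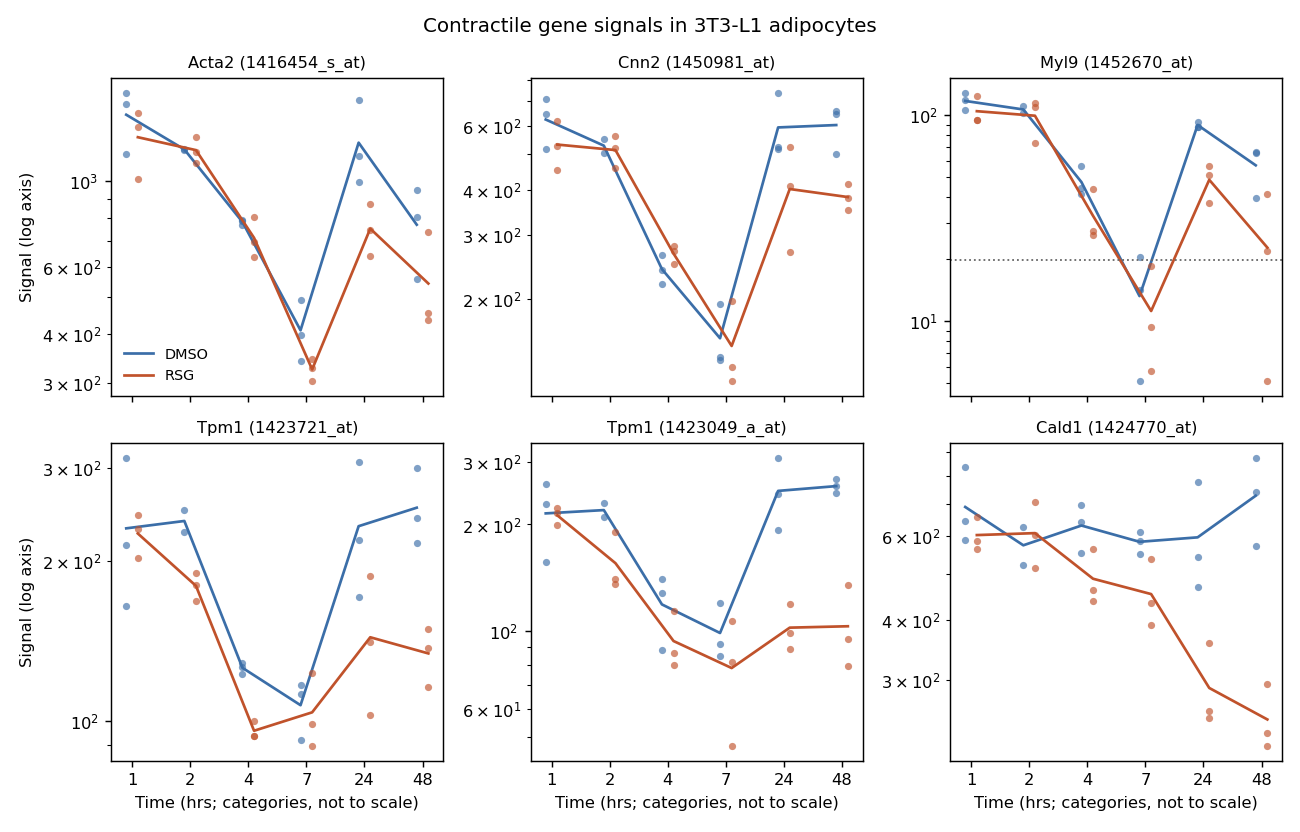
Signals of 6 probe sets in 3T3-L1 adipocytes by time on a log axis, with DMSO in blue and RSG in orange. Points are arrays (3 in a group, 2 in DMSO at 2 hrs), lines join group means, and the dotted line is the presence limit of 19.9. Acta2, Cnn2 and Myl9 have their lowest mean at 7 hrs in both arms, Tpm1 (1423721_at) has it at 7 hrs in DMSO and at 4 hrs in RSG, and Cald1 does not dip in DMSO and is lower with RSG at 24 and 48 hrs.

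The return was tested in the same way, also after the values were seen. From 7 to 24 hrs in DMSO, 5 of the 14 probe sets rose, where 0.161% of all did. They were Acta2 (1.6 ± 0.20 on the log2 scale, adjusted p = 3.64e-05), Cnn2 (1.93 ± 0.20, adjusted p = 1.78e-06), Myl9 (2.98 ± 0.49, adjusted p = 0.00247) and Tpm1 by both present probe sets (1.33 and 1.09). The number was 3 without the DMSO 7 hrs replicate 1 or without the DMSO 24 hrs replicate 3, when both Tpm1 probe sets were lost. In RSG, Acta2 (adjusted p = 0.000268), Cnn2 (adjusted p = 3.35e-05) and Myl9 rose, where 1.95% of all probe sets did, Myl9 being at least 2.41-fold higher at 24 hrs. Tpm1 was not called in RSG. Cald1 (1424770_at) was lower at 24 than at 7 hrs in RSG, at -0.66 (adjusted p = 0.0323), where 2.68% of all were lower, and this call was lost in 4 of the 6 fits without 1 array.

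This dip was not called in C3H/10T1/2 adipocytes. Acta2 had signals of 120, 99.2 and 181 at 1 hr in DMSO and 150, 141 and 232 at 7 hrs, and with RSG 93.3, 117 and 162 at 1 hr and 108, 114 and 136 at 7 hrs. These groups overlapped. From 1 to 7 hrs in RSG none of the 13 probe sets tested in this line was called by limma, at an adjusted p of 0.404 or above and with 0 at an unadjusted p under 0.05, where 4.37% of all 16123 were called in either direction. In DMSO 2 were higher at 4 hrs and 2 at 7 hrs, both of Cald1, where 3.29% and 5.67% of all probe sets were higher. Cald1 (1424769_s_at) went from 478, 506 and 426 at 1 hr to 850, 928 and 760 at 7 hrs, a rise of 0.85 ± 0.14 (adjusted p = 6.95e-05), with all arrays at 7 hrs above all at 1 hr. With the replicate block the third Cald1 probe set (1424768_at, 0.56) was called as well at 7 hrs (adjusted p = 0.0317).

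The change from 1 to 7 hrs in DMSO differed between the lines for 6 of 15 probe sets, all lower in 3T3-L1, where 0.99% of all 18274 were lower. The difference of the changes was -2.25 ± 0.38 for Acta2 (adjusted p = 0.000182), -2.25 ± 0.32 for Cnn2 (adjusted p = 7.02e-06) and -1.14 ± 0.25 for Tpm1 (1423721_at, adjusted p = 0.00583). It was -4.80 ± 0.78 for Myl9, with signals under the limit in both lines, and -2.72 with these raised to it. The other present Tpm1 probe set (1423049_a_at, -1.25) was called only with the replicate block (adjusted p = 0.0276). For Cald1 it was -0.81 ± 0.19 (1424769_s_at) and -0.99 ± 0.23 (1424770_at), where the rise in C3H/10T1/2 made the difference and 3T3-L1 moved by 0.03 and -0.23.

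**Figure D3:**
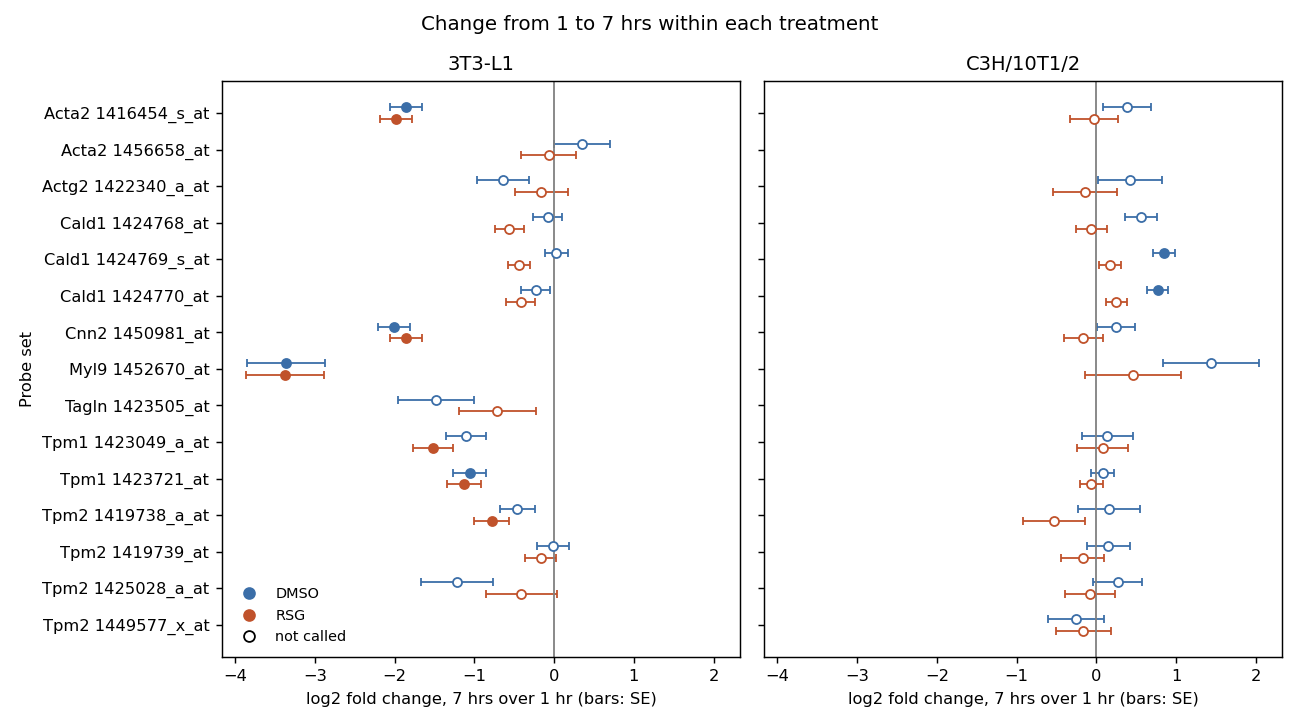
Log2 fold change from 1 to 7 hrs for the 15 probe sets tested in at least 1 line, within DMSO (blue) and within RSG (orange), in 3T3-L1 (left) and C3H/10T1/2 adipocytes (right). Bars are standard errors, filled points have an adjusted p under 0.05 by limma, and probe sets not tested in a line have no point. Myl9, Cnn2 and Acta2 lie furthest to the left in 3T3-L1 in both arms.

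Later in the DMSO course of C3H/10T1/2, Tpm2 was lower. Tpm2 (1425028_a_at) went from 102, 81.8 and 152 at 1 hr to 59.9, 54.8 and 49.7 at 24 hrs and 40.5, 29.3 and 41.9 at 48 hrs. The early and late arrays did not overlap. Against 1 hr its log2 change was -0.98 at 24 hrs (adjusted p = 0.0322, lost in 5 of 6 fits without 1 array) and -1.56 at 48 hrs (adjusted p = 0.000707), and the weak probe set 1449577_x_at was at least 1.41-fold lower at both times. These 2 were the probe sets called lower at 24 and at 48 hrs, where 5.5% and 5.12% of all were lower, and at 2 hrs none was called (0.8% in either direction, 1 at an unadjusted p under 0.05). Replicate numbers paired the C3H/10T1/2 arrays, and with the replicate block Acta2 was 0.79 higher at 48 than at 1 hr (adjusted p = 0.000346). Myl9, under the limit on all 3 arrays at 1 hr, was at least 1.41-fold higher at 48 hrs, with an adjusted p of 0.0403 under the block by limma. Neither was called without it.

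From 7 to 24 hrs in C3H/10T1/2 DMSO, 4 probe sets were lower, the 3 of Cald1 (-0.81, -0.67 and -0.73) and Tpm2 (1425028_a_at, -1.26), where 2.52% of all were lower, and with the replicate block also the weak Tpm2 probe set 1449577_x_at (adjusted p = 0.0189). In RSG over the same interval 2 Cald1 probe sets were lower, at -0.64 and -0.81, where 0.924% of all were, and the count was 6 with the replicate block. These comparisons were added after the values were seen and share their 24 hrs arrays with the treatment comparison that follows.

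RSG against DMSO, the comparison for which the study was made, gave no call in the group in the first hours. In 3T3-L1 none of the 14 probe sets was called by limma at 1, 2, 4 or 7 hrs, when 0.0666%, 0.172%, 0.716% and 2.04% of all probe sets were called in either direction, and the counts at an unadjusted p under 0.05 were 0, 0, 0 and 2. In C3H/10T1/2 none of the 13 was called at 1, 2 or 4 hrs, when 0.0434%, 0.229% and 0.763% of all were, and the unadjusted counts were 0, 0 and 2. The methods' ANOVA at an unadjusted p under 0.05 and a 1.2-fold change gave these same counts at each of these times.

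At 24 hrs RSG lowered 7 of 14 probe sets in 3T3-L1 adipocytes, of Acta2, Cald1, Cnn2 and Tpm1, where 6.97% of all probe sets were lower. None was higher, where 4.79% of all were. Cald1, the caldesmon gene, was lower by all 3 of its probe sets. Cald1 (1424770_at) had signals of 541, 469 and 778 in DMSO and 251, 259 and 358 in RSG, a log2 change of -1.03 ± 0.18 (adjusted p = 0.0002). The other 2 changed by -0.83 ± 0.18 (1424768_at) and -0.85 ± 0.14 (1424769_s_at), and no RSG array reached a DMSO array in any of the 3.

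Tpm1 (1423049_a_at) had signals of 193, 245 and 309 in DMSO and 119, 88.8 and 98.5 in RSG at 24 hrs, a change of -1.27 ± 0.25 (adjusted p = 0.000539) with no overlap, and 1423721_at changed by -0.70 ± 0.21 (adjusted p = 0.0254). Acta2, at 1160, 996 and 1620 in DMSO and 637, 746 and 874 in RSG, changed by -0.72 ± 0.20 (adjusted p = 0.0151) with no overlap. Cnn2 was just past the threshold, at -0.60 ± 0.20 (adjusted p = 0.0489), and its groups overlapped. The calls for Acta2, Cnn2 and Tpm1 (1423721_at) were each lost in 2 to 4 of the 6 fits that left out 1 array, and the count of 7 dropped to 4 when either RSG replicate 1 or DMSO replicate 3 was left out. Tagln (-1.2 ± 0.48, adjusted p = 0.109) and Myl9 (-0.91 ± 0.49, adjusted p = 0.271) were not called. The median over the 14 probe sets was -0.71, against -0.01 over all tested.

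At 48 hrs 6 probe sets were lower in 3T3-L1, where 8.09% of all were, and none was higher, where 6.2% of all were. Cald1 (1424770_at) had signals of 873, 571 and 740 in DMSO and 218, 233 and 294 in RSG, a change of -1.54 ± 0.18 (adjusted p = 3.16e-07). Cald1 (1424769_s_at) changed by -0.71, Tpm1 by -1.35 (1423049_a_at) and -0.91 (1423721_at) and Cnn2 by -0.65. In each of these 5 the groups did not overlap. Myl9 had 65.4, 39.8 and 66.2 in DMSO and 21.8, 5.1 and 41.4 in RSG and changed by -1.74 ± 0.49 (adjusted p = 0.0131). Its groups overlapped, 1 RSG array was under the limit, and the call was lost when RSG replicate 2 or DMSO replicate 1 was left out (adjusted p up to 0.208). Cnn2 was lost in 4 of the 6 fits without 1 array. Acta2 had 806, 558 and 947 in DMSO and 435, 455 and 736 in RSG, which overlapped, and was not called (-0.52 ± 0.20, adjusted p = 0.0875). Within each replicate number its RSG signal was below the DMSO signal, and with the replicate block Acta2 was called (adjusted p = 0.0281), as was the third Cald1 probe set (1424768_at, -0.45, adjusted p = 0.036). Actg2 and the Tpm2 probe sets were called at no time in this line.

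**Figure D4:**
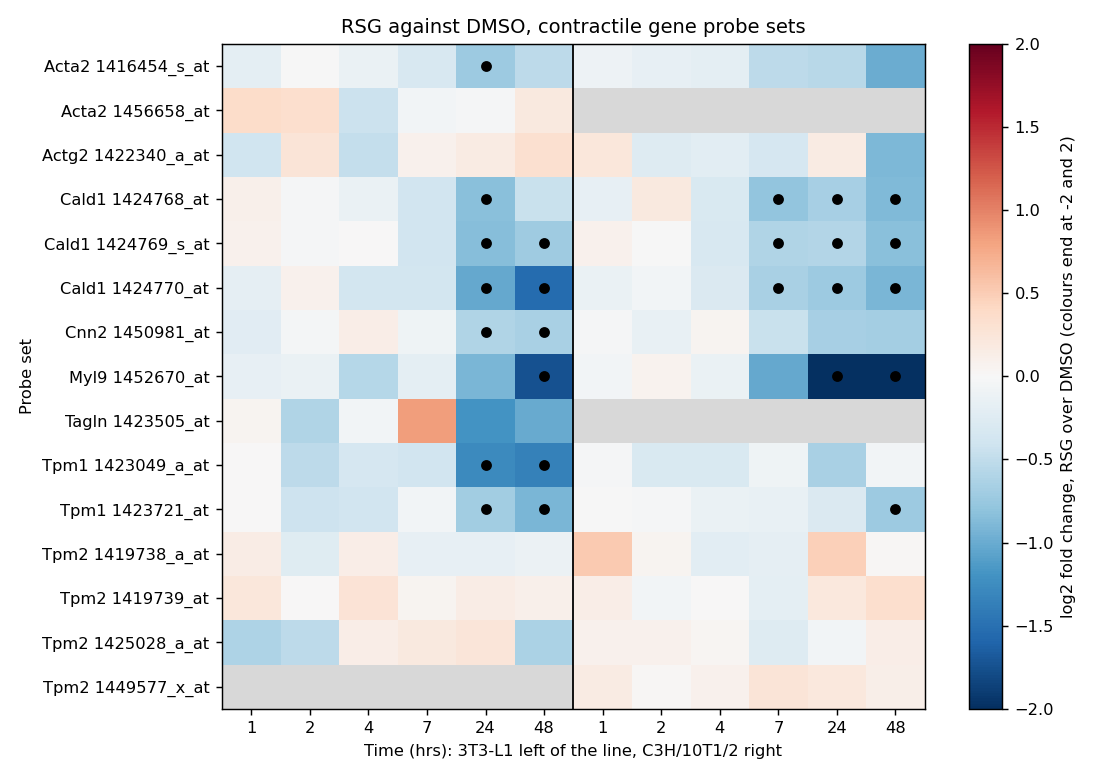
Log2 fold change of RSG over DMSO for the 15 probe sets tested in at least 1 line, by time, with 3T3-L1 left of the black line and C3H/10T1/2 right of it. Blue is lower and red higher with RSG, grey was not tested, and a dot marks an adjusted p under 0.05 by limma. Dots appear at 24 and 48 hrs in 3T3-L1 and from 7 hrs on in C3H/10T1/2, where the Cald1 probe sets hold most of them.

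In C3H/10T1/2 adipocytes Cald1 was the first gene of the group to be called. At 7 hrs its 3 probe sets were the 3 lower, where 1.2% of all probe sets were lower, and none was higher, where 1.65% of all were. Cald1 (1424770_at) had signals of 440, 436 and 469 in DMSO and 258, 275 and 327 in RSG, a change of -0.65 ± 0.13 (adjusted p = 0.00358) with no overlap. The DMSO arrays at 7 hrs were the same in which Cald1 stood above its 1 hr level, and the RSG arrays at 7 hrs overlapped those at 1 hr (211, 271 and 243). The count of 3 was 0 when the 2 groups were fitted alone and 1 when either RSG replicate 3 or DMSO replicate 2 was left out.

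At 24 hrs in C3H/10T1/2 the 3 Cald1 probe sets and Myl9 were lower, where 4.07% of all were lower, and at 48 hrs these and Tpm1 (1423721_at), where 2.62% of all were. None was higher at either time, where 3.65% and 2.79% of all were. Cald1 (1424770_at) had signals of 251, 281 and 293 in DMSO and 120, 157 and 165 in RSG at 48 hrs, a change of -0.91 ± 0.13 (adjusted p = 2.42e-05). Tpm1 (1423721_at) went from 115, 100 and 109 to 58.0, 70.0 and 67.8, a change of -0.73 ± 0.14 (adjusted p = 0.00129), and its groups did not overlap. Myl9 at 48 hrs had 26.6, 28.6 and 29.3 in DMSO and 1.8, 2.7 and 20 in RSG, with a fitted change of -2.61 that depends on signals under the limit on 2 of the 3 RSG arrays. It ranged from -3.67 to -1.94 in the fits without 1 array, and the call was lost without RSG replicate 1 or 2 (adjusted p up to 0.0734). The Myl9 mean went from 8.5 at 1 hr to 28.2 at 48 hrs in DMSO and from 8.27 to 8.17 in RSG. At 24 hrs Myl9 was under the limit on 2 of 3 DMSO arrays and on all RSG arrays, and no change is given. Of the 4 calls at 24 hrs, 1 was left when DMSO replicate 2 was dropped, 2 when RSG replicate 1 or DMSO replicate 3 was dropped, and 2 after quantile normalization.

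Acta2 in C3H/10T1/2 depended on the pairing of replicates. Its signals at 48 hrs were 179, 170 and 367 in DMSO and 92.0, 96.8 and 160 in RSG, and replicate 3 was the highest in 12 of the 12 groups of this line. Within each replicate number the RSG signal was below the DMSO signal at 48 hrs. Without the block the change was -0.99 ± 0.30 and missed the threshold (adjusted p = 0.0505). With the replicate block Acta2 was lower with RSG at 7 hrs (-0.52, adjusted p = 0.0375), 24 hrs (-0.55, adjusted p = 0.0145) and 48 hrs (-0.99, adjusted p = 3.18e-05).

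**Figure D5:**
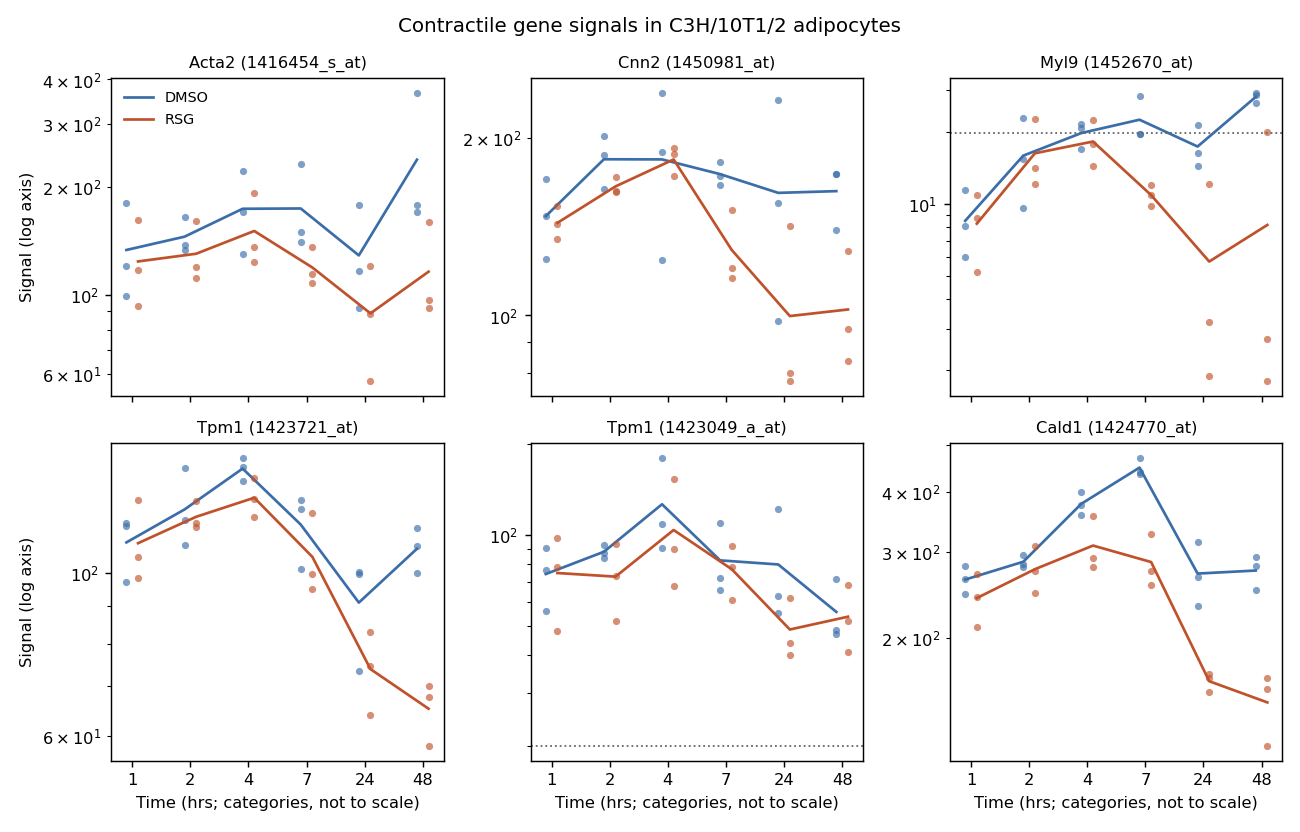
Signals of the same 6 probe sets in C3H/10T1/2 adipocytes by time on a log axis, with DMSO in blue and RSG in orange. Points are the 3 arrays of a group, lines join group means, and the dotted line is the presence limit of 19.9, drawn where signals come near it. Cald1 (1424770_at) reaches a mean of 448 at 7 hrs in DMSO and 287 in RSG, and Acta2, Cnn2 and Tpm1 (1423721_at) have lower means with RSG at 48 hrs.

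The RSG effect itself was not shown to differ between the lines for any of the 15 probe sets by limma at any of the 6 times, with 0 at an unadjusted p under 0.05 at 24 hrs and 3 at 48 hrs. Among all 18274 probe sets 0.257% differed at 24 hrs and 0.848% at 48 hrs. The difference of the effects at 48 hrs, 3T3-L1 minus C3H/10T1/2, was 0.03 ± 0.32 for Cnn2, 0.48 ± 0.38 for Acta2 and -0.63 ± 0.23 for Cald1 (1424770_at). With the replicate block 2 were called at 48 hrs, Tpm1 (1423049_a_at, -1.30, adjusted p = 0.0347) and Cald1 (1424770_at, -0.63, adjusted p = 0.0161), both more negative in 3T3-L1.

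Markers of fibroblasts and preadipocytes were also lower with RSG. Of their 21 tested probe sets in 3T3-L1, RSG lowered 8 by the first day and 13 by the second, and of 20 in C3H/10T1/2 it lowered 7 and 6. The shares lower among all probe sets were 6.97% and 8.09%, then 4.07% and 2.62%. Their summed signal over 13 genes in 3T3-L1 was 25517 to 31220 in DMSO against 19085 to 24023 in RSG at 24 hrs, then 31108 to 32736 against 20435 to 22716 at 48 hrs. In C3H/10T1/2 the same sums were 23099 to 27069 against 17205 to 18716, then 21490 to 22726 against 15986 to 18693. At 1 hr they were 17334 to 20746 in DMSO, below both later times, and 16254 to 20311 in RSG, overlapping both later times. S100a4, a calcium-binding protein of fibroblasts, changed by -1.65 in 3T3-L1 at 48 hrs (adjusted p = 2.15e-06), and Pdgfrb, a growth factor receptor of mesenchymal cells, by -1.40 in C3H/10T1/2 at 24 hrs (adjusted p = 0.000213). The Pdgfrb mean in C3H/10T1/2 DMSO rose from 74.0 at 1 hr to 176 at 24 hrs, and in RSG at 24 hrs it was 67.7. From 1 to 7 hrs in 3T3-L1, where the contractile genes dipped, no fibroblast marker was called by limma in either arm, but at an unadjusted p under 0.05 there were 2 lower in DMSO and 10 lower in RSG. The summed signal went from 28939 to 36115 at 1 hr to 26119 to 30597 at 7 hrs in DMSO, which overlapped, and from 30756 to 34032 to 21690 to 27927 in RSG, which did not. The part of these markers in the changes of the contractile genes was not tested. Endothelial and macrophage markers gave no call by limma with RSG at 24 or 48 hrs, although an unadjusted p under 0.05 was met by 1 and 2 of 12 in 3T3-L1, both times upward, and by 0 of 9 in C3H/10T1/2.

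Genes of related function in the cytoskeleton were read against the shares of all probe sets called with RSG, which were 6.97% lower and 4.79% higher at 24 hrs and 8.09% and 6.2% at 48 hrs in 3T3-L1, and 4.07% and 3.65%, then 2.62% and 2.79%, in C3H/10T1/2. Among related isoforms of the same families (non-muscle actins, other calponins, tropomyosins and light chains), 10 of 24 probe sets were lower with RSG in 3T3-L1 at 24 hrs and 8 at 48 hrs, when 1 was higher, and 3 of 25 were lower in C3H/10T1/2 at each time. Cnn3, a calponin found outside muscle, changed by -0.79 and -0.76 in 3T3-L1 at 24 and 48 hrs, and Myl12b, a non-muscle regulatory light chain, by -0.50 and -0.63. Among actin crosslinkers and adhesion genes 16 of 51 probe sets were lower and 1 higher in 3T3-L1 at 24 hrs, and 8 of 49 lower and 1 higher in C3H/10T1/2. Pxn, the gene of the adhesion protein paxillin, changed by -1.09 ± 0.22 in 3T3-L1 and Flna, the actin crosslinker filamin A, by -0.90 ± 0.20 in C3H/10T1/2. The Flna mean in C3H/10T1/2 DMSO rose from 104 at 1 hr to 170 at 24 hrs, and in RSG at 24 hrs it was 91.4. Csrp2, a LIM protein gene of smooth muscle, was higher with RSG in C3H/10T1/2, by 0.95 (adjusted p = 1.1e-05). Its mean in DMSO fell from 441 at 1 hr to 218 at 24 hrs, and in RSG at 24 hrs it was 419. Of the myosin motor and its regulators, 6 of 25 were lower in 3T3-L1 at 24 hrs and 7 at 48 hrs, and 1 of 24 at 24 hrs in C3H/10T1/2, a share near that of all probe sets. At 48 hrs none was called there by limma, with 3 lower at an unadjusted p under 0.05.

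Further smooth muscle markers and SRF partners were counted in the same way. From 1 to 7 hrs in 3T3-L1, none of the 13 probe sets of smooth muscle markers was called by limma in DMSO (1 lower at an unadjusted p under 0.05) or in RSG (0). Of 24 related isoform probe sets, 1 was lower in DMSO (Tpm4, -0.88), where 0.0666% of all were, and 4 in RSG, where 1.77% were. Of 51 for actin crosslinkers and adhesions, 0 were lower in DMSO (7 at an unadjusted p under 0.05). In RSG 6 of these 51 were lower (19 unadjusted), among them Zyx at -1.34 (adjusted p = 0.000118). None in either list was called higher. In the SRF axis (SRF, its cofactors and TEAD partners with some of their targets) none of 24 was called by limma in DMSO, with 1 higher and 3 lower at an unadjusted p under 0.05, and in RSG 3 were lower and 2 higher, where 1.77% of all probe sets were lower and 1.91% higher. The changes at 7 hrs named here were picked after the values were seen. The 3 SRF axis probe sets lower in RSG included Ccn1, a matricellular early target, at -1.26 (adjusted p = 0.014) and Fhl2, a LIM coactivator gene, at -0.99 (adjusted p = 0.0135). The 2 higher included Wwtr1, a TEAD coactivator gene, at 0.66 (adjusted p = 0.00561). In C3H/10T1/2, where the dip was not called, Srf changed from 1 to 7 hrs by -1.04 in DMSO (adjusted p = 1.5e-05) and -1.05 in RSG (adjusted p = 2.24e-05), and Ccn1 by -1.89 and -1.98. With RSG against DMSO at 24 hrs in 3T3-L1, no SRF axis probe set was lower by limma (3 at an unadjusted p under 0.05). At that time 3 of 24 were higher, where 4.79% of all were. By brightest probe sets the only gene higher was Wwtr1, which encodes the TEAD coactivator TAZ, at 0.91 (adjusted p = 3.83e-05). At 48 hrs 3 were higher and Vgll4 was lower (-0.57, adjusted p = 0.00714), where 6.2% and 8.09% of all were. In C3H/10T1/2 1 of 23 was higher at 24 hrs and 1 lower at 48 hrs, near the shares of all (3.65% and 2.62%). Of the further smooth muscle markers, RSG lowered 1 of 13 in 3T3-L1 at 24 hrs, a share near the 6.97% of all, and 2 at 48 hrs, where 8.09% of all were lower, namely Sncg (-2.02 and -1.44) and at the later time Aoc3 (-0.72), which are also strongly expressed by adipocytes.

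Across the 24 group means, each centred on its own line, the genes most like Acta2 were ranked by Pearson's r over 11759 probe sets present in every group. The most alike outside the group were Dclk1 (r = 0.843), Grb14 (0.803), Lox, the matrix crosslinking enzyme (0.783), Tpm3 (0.77) and Casp12 (0.753). Of the group's own probe sets, Cnn2 ranked 2 (r = 0.84) and Tpm1 ranked 9 and 22 (0.748 and 0.708), whereas Cald1 ranked 255 to 541 and Tpm2 from 1389 to 8482. Myl9, Tagln, Actg2 and Cnn1 were not ranked, because each had group means under the limit. These r values describe 24 means that share cultures and time points and carry no test. Ordered by group mean, Acta2 in 3T3-L1 was lowest in RSG at 7 hrs (324) and DMSO at 7 hrs (410) and highest in DMSO at 1 hr (1487), and along the 12 groups only 1 pair of neighbours, DMSO at 4 hrs (783) and RSG at 2 hrs (1203), did not overlap. In C3H/10T1/2 all neighbours overlapped, from RSG at 24 hrs (88.9) to DMSO at 48 hrs (239).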

How the data were processed

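RNA of 71 cultures was hybridized to Affymetrix mouse 430A arrays, and the deposited intensity values are MAS5 signals on a linear scale, which the authors computed with the Affymetrix software without log transformation. RNA and cRNA samples were randomized before labeling and hybridization, per the study's methods. The methods call probe sets of at least 19.9 present, and the 27 control probe sets of bacterial genes gave the same value here as their 95th percentile. The 64 control probe sets were set aside, 132 signals of 0 were set to 0.1, and values were log2-transformed. Gene names were those of the platform annotation, with 20380 probe sets naming 1 gene, 691 several and 1555 none. Array signals carry no read depth, and the number of arrays limits the precision.

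A probe set entered the tests of a line if at least 1 of its 12 group means was at the limit, which left 18028 for 3T3-L1, 16123 for C3H/10T1/2 and 18274 for the joint fit. The 14 and 13 probe sets of the group that passed are not all 17. limma 3.58.1 (R 4.3.3; lmFit, eBayes with an intensity trend) was fitted with a mean per group, in each line and jointly, and p-values were adjusted by the Benjamini-Hochberg procedure over all probe sets tested. Probe sets with an adjusted p under 0.05 were called. Where a probe set was under the limit on all arrays of 1 group, a bound against the limit is given in place of a fold. The members and lists were chosen with earlier results of these data known. Genes of other lists were named by a rule of up to 3 largest rises and falls per list and comparison at 24 and 48 hrs. In C3H/10T1/2 the replicate numbers paired the arrays, since the deviations of the same number correlated over 0.1 in 18 of 18 pairs (0.178 to 0.404), which comes from the data and not from the labels. In 3T3-L1 they did so in 16 of 17 pairs (0.03 to 0.348). The study's methods state that the replicates were differentiated from 3 batches, but whether a number marks a batch is not given in the sources used here, so calls that the block changes are given for both lines, beside the result or with the alternatives. The code was tested on simulated data. The methods' test was ANOVA on log10 signals.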

Additional observations from a re-analysis of the deposited data

Results flagged for a closer look

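The change from 1 to 7 hrs in DMSO differed between the lines for 6 probe sets by limma in the joint fit, a comparison added after the values were seen. The difference, 3T3-L1 minus C3H/10T1/2, was -2.25 for Acta2 (1416454_s_at), -2.25 for Cnn2 (1450981_at), -4.80 for Myl9 (1452670_at), -1.14 for Tpm1 (1423721_at), -0.81 for Cald1 (1424769_s_at) and -0.99 for Cald1 (1424770_at) on the log2 scale. No gap within a group was examined, since groups held 2 or 3 arrays.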

How the results depend on the processing

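No called change turned direction when the same comparison was fitted in another way. With only the compared groups in the fit, RSG lowered 0 probe sets in C3H/10T1/2 at 7 hrs, 1 at 24 hrs and 3 at 48 hrs, and fewer residual degrees of freedom are part of that setting. After quantile normalization the count at 24 hrs was 2. The methods' test at an unadjusted p gave 2 calls at 4 hrs and 8 at 48 hrs in C3H/10T1/2 and 2 at 7 hrs in 3T3-L1. With signals raised to the presence limit the counts against 1 hr in DMSO were, for 3T3-L1, 2 at 4 hrs and 2 at 48 hrs, and 1 at 24 hrs and 1 at 48 hrs in C3H/10T1/2. With the replicate block the count was 2 at 4 hrs in 3T3-L1 DMSO, 2 lower from 7 to 24 hrs in 3T3-L1 RSG, 6 in C3H/10T1/2 RSG, and 2 for the difference of the RSG effects at 48 hrs. In 3T3-L1 the deviations of the same number correlated over 0.1 in 16 of 17 pairs. There the block added Acta2 at 4 hrs (-0.91) and Tpm1 (1423049_a_at) at 7 hrs (-1.11) in DMSO. In RSG it added the 3 Cald1 probe sets from 1 to 7 hrs (-0.56, -0.44 and -0.42) and Cald1 (1424769_s_at) from 7 to 24 hrs (-0.43). Between the lines at 1 hr Actg2 was lost. Beside these and the calls named with the results, the block changed no other call. Without the intensity trend no probe set was lower from 7 to 24 hrs in 3T3-L1 RSG. In DMSO at 1 hr only or at 48 hrs only, 0 probe sets were called lower in 3T3-L1 than in C3H/10T1/2. At 48 hrs only, 14 of the 15 log2 differences were positive and 1 was negative. The lower Tpm2 signals of the mean over 6 times, called for 3 probe sets, were thus not kept in direction at each time.

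Leaving out 1 array at a time gave 1 to 3 probe sets lower with RSG in C3H/10T1/2 at 7 hrs, 1 to 4 at 24 hrs and 4 to 6 at 48 hrs, and 4 to 7 and 4 to 8 in 3T3-L1 at 24 and 48 hrs. In DMSO against 1 hr it gave 1 to 2 at 4 hrs, 3 to 4 at 7 hrs and 0 to 1 at 48 hrs in 3T3-L1, and in C3H/10T1/2 it gave 1 to 2 at 4 hrs, likewise 1 to 2 at 24 hrs. From 7 to 24 hrs it gave 3 to 5 higher in 3T3-L1 DMSO, 0 to 1 lower in 3T3-L1 RSG and 1 to 5 lower in C3H/10T1/2 RSG, and 0 to 1 for the difference of the RSG effects at 48 hrs. The cause of these shifts was not tested. Signals near the presence limit (Tagln, Actg2, Myl9 at its low points) carry little information on fold.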
